A study of Mus musculus with 2 samples.

Results

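Levels of 9 receptor genes for noradrenaline and adrenaline, acetylcholine and adenosine were measured in mouse heart. They were taken by symbol from a list of adrenergic, muscarinic and adenosine receptors: Adra1a, Adra1b and Adra1d (alpha-1), Adra2a, Adra2b and Adra2c (alpha-2), Adrb1 (beta-1), Chrm2 (muscarinic M2) and Adora1 (adenosine A1). All 9 were found among the 55536 mouse genes of the gene tables, with 24 annotated transcripts between them. The hearts came from 2 female B6CASTF1/J mice aged 36 days, an F1 cross of C57BL/6J with CAST/EiJ, and each library was made from 300 ng of total RNA with ERCC spike-in RNAs added. Mouse 4 gave replicate 2 and mouse 3 gave replicate 1. Both libraries carry 1 donor identifier in the labels, but each has its own biosample, and they were treated as 2 animals. They form 1 group with no treatment and no control, so the levels, their order and the match between the 2 animals are what the design gives.

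These receptors sit in the cell membrane and pass their signal to G proteins inside the cell. Adrb1 couples to the stimulatory protein Gs, which raises cyclic AMP and with it the rate and force of the heartbeat. Chrm2, Adora1 and the alpha-2 receptors couple to Gi, which lowers cyclic AMP and, in atrial and pacemaker cells, opens potassium channels that slow the heart. The alpha-1 receptors couple to Gq, which activates phospholipase C and is known for its role in growth of heart muscle cells and in contraction of vascular smooth muscle.

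The sum of expected counts, the authors' estimated reads per gene, was 38332179 in replicate 2 and 39053339 in replicate 1. Against the counts of mouse genes alone, 38168674 in replicate 2 and 38845613 in replicate 1, a count of 3 (the limit that a count of 0 allows) corresponded to 0.0786 CPM (counts scaled to library size) in replicate 2 and 0.0772 CPM in replicate 1. The 5 cardiomyocyte markers summed to 20630 TPM in replicate 2 and 20707 TPM in replicate 1 (TPM is a transcript level scaled by length and library size). Atrial markers summed to 1250 TPM in replicate 2 and 1255 TPM in replicate 1, and ventricular markers to 11283 TPM in replicate 2 and 11759 TPM in replicate 1. Of the 5 atrial markers, Bmp10 was called lower in replicate 2, at 9.46 TPM in replicate 2 and 20.73 TPM in replicate 1, and the other 4 were not called. Of these 4, Sln was at 35.7 TPM in replicate 2 and 30.6 TPM in replicate 1. Myl4 and Myl7 also had the higher TPM in replicate 2, and Nppa had the lower. The sums of some other lists differed more. Erythroid markers summed to 7896 TPM in replicate 2 and 24343 TPM in replicate 1, brown adipocyte markers to 29.9 TPM in replicate 2 and 97.5 TPM in replicate 1, and white adipocyte markers to 31.8 TPM in replicate 2 and 55.5 TPM in replicate 1. In whole tissue, fewer cells of a type and less RNA per cell cannot be told apart.

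The muscarinic M2 receptor gene had the highest level of the 9, followed by Adra1b, Adra1a, Adrb1 and Adora1. Adra1d was at 1.19 TPM in replicate 2 and 2.05 TPM in replicate 1, and the 3 alpha-2 genes were below 0.5 TPM. A TPM of at least 1 in both libraries was reached by 6 of the 9 genes, and 12024 of all 55536 genes reached it. The summed level of the 9 genes was 81.96 TPM in replicate 2 and 85.95 TPM in replicate 1 (mean 84.0 ± 2.82, SD, n = 2). In the authors' TPM, most neighbours in the order stood apart: the ranges of the 2 libraries overlapped only between Adra2a and Adra2c. The separation of Adra1b from Adra1a depended on the transcript lengths used, as given below. The 95% counting intervals, which cover counting error only since reads are not independent molecules, also overlapped between Adra2b and Adra2a in replicate 1.

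**Figure D1:**
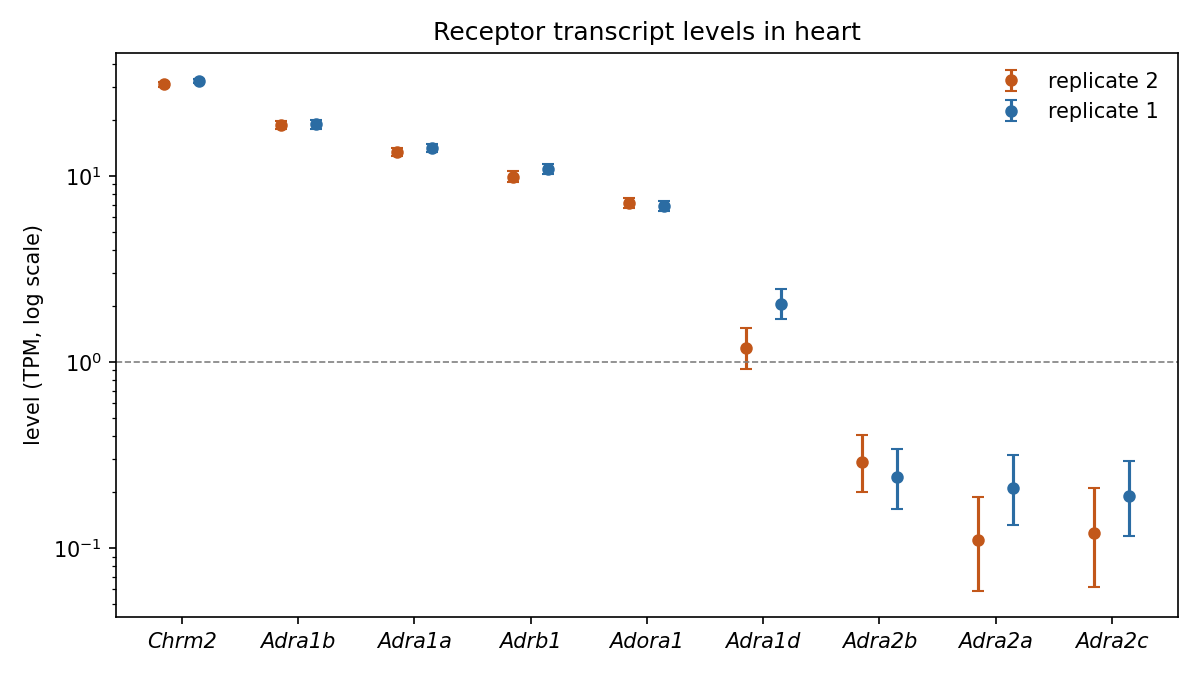
Level of each receptor gene (TPM, log axis) in replicate 2 and replicate 1, with points for the authors' values and bars for exact 95% counting intervals; the dashed line is 1 TPM. Chrm2 is at 31.02 TPM in replicate 2 and 32.45 TPM in replicate 1 at the left, and the alpha-2 genes lie between 0.11 and 0.29 TPM at the right.

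By G protein class, Gi-coupled receptors held 46.8 ± 0.488% of the summed TPM of the 9 genes, Gq-coupled receptors 40.8 ± 0.0280% and the Gs-coupled Adrb1 12.4 ± 0.460% (SD, n = 2 each). Chrm2 alone held 37.8% in each library. Among the 7 adrenergic genes, alpha-1 receptors held 75.7 ± 0.744% of the TPM, Adrb1 23.0 ± 0.613% and alpha-2 receptors 1.28 ± 0.131%. These are shares of RNA and not of receptor protein.

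Of the Gq-coupled alpha-1 receptors, Adra1b had the highest TPM. Adra1b (ENSMUSG00000050541.14, GRCm38 chromosome 11, 43774606 to 43901210, minus strand) was at 18.80 TPM in replicate 2 (1344 counts, 95% counting interval 17.8 to 19.8 TPM) and 18.94 TPM in replicate 1 (1393 counts, 17.96 to 19.96 TPM). The libraries overlapped within counting error, and the gene ranked 2943 of 21951 protein-coding genes in replicate 2 and 3069 in replicate 1. Adra1a (ENSMUSG00000045875.13, chromosome 14, 66635251 to 66771168, plus strand) was at 13.41 TPM in replicate 2 (1620 counts, 12.8 to 14.1 TPM) and 14.07 TPM in replicate 1 (1738 counts, 13.4 to 14.7 TPM). Here too the intervals overlapped.

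Adra1a thus had more counts than Adra1b in both libraries but a lower TPM. Adra1b TPM was 1.40 times that of Adra1a in replicate 2 and 1.35 times in replicate 1. Much of the Adra1b TPM came from Adra1b-203, a transcript of 1764 bases whose end is incomplete in the annotation. Per kilobase of the longest annotated transcript, Adra1b had 403 counts in replicate 2 and 418 in replicate 1, against 378 in replicate 2 and 406 in replicate 1 for Adra1a. The library ranges of Adra1b and Adra1a then overlapped. On that scale Adra1b held 48.3% and Adra1a 46.1% of the alpha-1 sum, where the authors' TPM gave 55.2 ± 1.60% and 40.1 ± 0.0131% (SD, n = 2 each).

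Adra1d (ENSMUSG00000027335.9, chromosome 2, 131545850 to 131562283, minus strand), the alpha-1 receptor known from large arteries, was at 1.19 TPM in replicate 2 (65 counts, 0.918 to 1.52 TPM) and 2.05 TPM in replicate 1 (116 counts, 1.69 to 2.46 TPM). Replicate 2 was the lower library and the intervals did not overlap. Smooth muscle markers summed to 141 TPM in replicate 2 and 158 TPM in replicate 1, and whether they bear on the Adra1d values was not tested.

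Among the 6 annotated transcripts of Adra1a, Adra1a-203 and Adra1a-201 differ at the end of the coding sequence, in the receptor's intracellular tail. Adra1a-203 splices from base 66727831 of chromosome 14 to base 66731564, so that 4 codons and a stop follow the shared part. Adra1a-201 reads on into base 66727832 and adds 43 codons before its stop, as do Adra1a-202 and Adra1a-205 by their coding length of 1398 bases. The ends are shown because Adra1a RNA was split between them in both animals and both quantifications. In the lines below, from GENCODE M21 transcripts on the plus strand, 24 shared coding bases are in lower case and the bases specific to each end, stop codon included, are in capitals.
Adra1a-203: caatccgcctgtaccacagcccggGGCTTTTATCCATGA
Adra1a-201: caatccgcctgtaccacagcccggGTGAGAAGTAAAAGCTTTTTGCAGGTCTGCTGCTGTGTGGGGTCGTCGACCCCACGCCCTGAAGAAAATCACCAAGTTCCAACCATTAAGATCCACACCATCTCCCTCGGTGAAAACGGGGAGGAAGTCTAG

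Adra1a-203, the short end, held 45.2% of Adra1a TPM in replicate 2 and 55.0% in replicate 1 in the first quantification, which used alignments. The second quantification, made from a transcript index, put it at 47.0% in replicate 2 and 54.2% in replicate 1. The read-through end held 47.2% in replicate 2 and 40.6% in replicate 1 in the first quantification. In the second it held 45.7% in replicate 2 and 41.4% in replicate 1. Both ends were therefore present at like levels in both animals, and the short end was the lower of the pair in replicate 2 of the first quantification only. A transcript with a retained intron, Adra1a-204, held 4.40% in replicate 2 and 3.06% in replicate 1. Adra1a-206, whose coding sequence is shorter at 885 bases, held 3.21% in replicate 2 and 1.35% in replicate 1.

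Adra1b transcripts begin at either of a pair of start sites, and the 250 bases before each are shown because the transcripts split between them. The sequences are from RefSeq (GRCm38.p6, minus strand), at chr11:43901238-43901487 for the upstream start and chr11:43836490-43836739 for the downstream start. Capitals mark GGGCGG or its reverse complement CCGCCC, the GC box.
Adra1b upstream start: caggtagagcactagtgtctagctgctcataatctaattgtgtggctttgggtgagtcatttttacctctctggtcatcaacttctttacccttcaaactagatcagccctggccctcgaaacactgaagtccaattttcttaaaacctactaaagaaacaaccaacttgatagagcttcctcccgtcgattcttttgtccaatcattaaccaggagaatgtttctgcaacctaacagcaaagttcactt
Adra1b downstream start: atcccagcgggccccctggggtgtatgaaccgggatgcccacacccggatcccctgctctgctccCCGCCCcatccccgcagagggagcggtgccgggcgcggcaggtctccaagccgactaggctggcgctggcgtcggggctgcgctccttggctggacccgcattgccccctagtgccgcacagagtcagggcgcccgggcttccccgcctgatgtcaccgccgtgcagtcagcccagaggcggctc

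In windows of 300 bases that include the first 50 transcribed bases, the upstream start had a GC content of 42.3% and the downstream start 71.3%, against a median of 52.7% over 32851 windows. The upstream window held 3 CCAAT motifs and no GC box, and the downstream window 2 GC boxes and no CCAAT. The RefSeq start lay 27 bases from the nearest GENCODE start for the upstream site and 157 bases for the downstream site. The pair thus differed in base composition, at the 14.9th and 92.2nd percentile of all windows.

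The split between the starts depended on the quantification. Transcripts of the upstream start (Adra1b-201 and Adra1b-203) held 46.8% of Adra1b TPM in replicate 2 and 47.3% in replicate 1 in the first quantification. In the second quantification these transcripts held 79.9% in replicate 2 and 69.5% in replicate 1. With each annotated transcript taken alone, Adra1b-203 led in both, with 47.1 ± 0.392% and 62.3 ± 0.179% (SD, n = 2 each). Adra1b-201 was listed at 0 in the first quantification and at 17.4% in replicate 2 and 7.36% in replicate 1 in the second. Adra1b-202 and Adra1b-204, the downstream transcripts, have identical sequences, so their equal estimates carry no separate information. Which start held more of the TPM therefore differed between the quantifications: the downstream start in the first and the upstream start in the second.

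**Figure D2:**
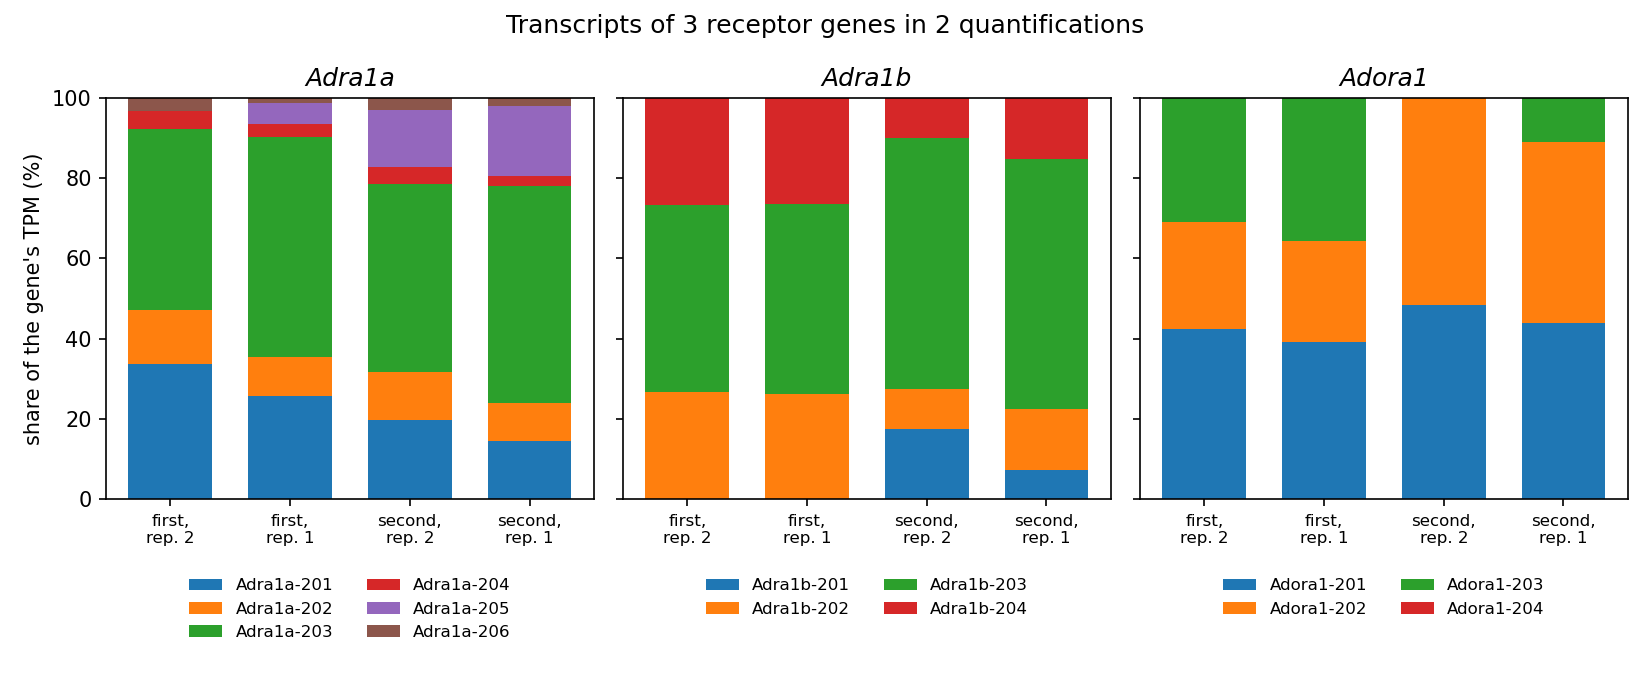
Share of each gene's TPM (%) held by its annotated transcripts for Adra1a, Adra1b and Adora1, as stacked bars for replicate 2 and replicate 1 in the first and second quantification. Adra1a-203 makes up 45.2% to 55.0% of Adra1a in all 4 bars, while the Adra1b and Adora1 bars change between quantifications.

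Among Gi-coupled receptors, Chrm2 (ENSMUSG00000045613.9, chromosome 6, 36388084 to 36528414, plus strand), the receptor through which the vagus nerve slows the heart, was at 31.02 TPM in replicate 2 (5150 counts, 30.2 to 31.9 TPM) and 32.45 TPM in replicate 1 (5643 counts, 31.6 to 33.3 TPM). It ranked 1782 in replicate 2 and 1805 in replicate 1 among protein-coding genes. Its level was 1.65 times that of Adra1b, the next gene, in replicate 2 and 1.71 times in replicate 1. The counting intervals of the libraries overlapped.

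Nearly all Chrm2 TPM belonged to 1 transcript, Chrm2-202, with 98.3 ± 1.12% in the first quantification and 97.0 ± 1.63% in the second (SD, n = 2 each). The RefSeq start and the GENCODE start of this transcript coincide at base 36388084. The 250 bases before it (RefSeq, GRCm38.p6, chr6:36387834-36388083, plus strand) are shown as the promoter of the receptor with the highest level, with the GC box in capitals.
Chrm2: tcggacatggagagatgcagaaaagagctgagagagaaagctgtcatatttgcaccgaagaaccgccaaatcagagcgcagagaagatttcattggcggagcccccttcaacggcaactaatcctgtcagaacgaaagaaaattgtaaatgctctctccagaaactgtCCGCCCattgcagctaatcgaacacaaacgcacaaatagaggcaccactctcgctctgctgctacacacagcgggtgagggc

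The Chrm2 window had a GC content of 52.7%, the median of all windows. RefSeq windows were at hand for 7 of the 9 genes, 9 windows in all, since Adra1b and Adora1 have more than 1. The GC box was found on either strand in 6 of the 9, against 35.7% of all 32851 windows, and CCAAT in 5 of the 9, against 37.4%. TATAAA was found in 1 window, that of Adra2a, against 13.6% of all, and the cyclic AMP response element TGACGTCA in 0, against 1.79%. Each motif was searched on both strands, and there were 0 overlaps between matches of different motifs in the 9 windows. A match is a description of the letters and not of binding.

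Adora1 (ENSMUSG00000042429.8, chromosome 1, 134199223 to 134235431, minus strand), the receptor through which adenosine slows conduction, was at 7.14 TPM in replicate 2 (908 counts, 6.68 to 7.62 TPM) and 6.88 TPM in replicate 1 (909 counts, 6.44 to 7.34 TPM). The libraries overlapped within counting error. Its leading transcript was not stable: Adora1-201 led the first quantification at 40.8 ± 2.36%, and Adora1-202 the second at 48.3 ± 4.56% (SD, n = 2 each). Adora1-203, which starts downstream, held 31.0% in replicate 2 and 35.6% in replicate 1 in the first quantification, but 0% in replicate 2 and 11.1% in replicate 1 in the second. All 3 of these transcripts have the same coding length of 978 bases.

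Part of Adora1 shares its bases with a gene on the other strand. Mybph, a myosin binding protein gene, overlaps 1162 of the 5785 exon bases of Adora1 (20.1%) and was listed at 0 counts in both libraries. Chrm2 shares 142 of 6053 exon bases (2.35%) with the lincRNA 9330158H04Rik, which was at 17.47 TPM in replicate 2 and 21.98 TPM in replicate 1. Adra1d shares 147 of 1899 exon bases (7.74%) with the antisense gene Gm14285, listed at 0 counts in both. Whether the counting used strand is not given in the sources used here, so reads of either strand in these bases cannot be told apart.

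The alpha-2 receptors, which on nerve endings curb the release of noradrenaline, were all under 1 TPM. Adra2b (ENSMUSG00000058620.5, chromosome 2, 127363208 to 127367221, plus strand) had 34 counts in replicate 2 and 30 in replicate 1, or 0.29 TPM in replicate 2 and 0.24 TPM in replicate 1. Adra2a (ENSMUSG00000033717.6, chromosome 19, 54044151 to 54048982, plus strand) had 13 counts in replicate 2 and 23 in replicate 1, or 0.11 TPM in replicate 2 and 0.21 TPM in replicate 1. Adra2c (ENSMUSG00000045318.6, chromosome 5, 35278319 to 35281763, plus strand) had 12 counts in replicate 2 and 20 in replicate 1, or 0.12 TPM in replicate 2 and 0.19 TPM in replicate 1. All 3 lay above the limit of 3 counts in both libraries. Within the subfamily, Adra2b held 46.6 ± 12.9% of the TPM, Adra2a 27.0 ± 8.24% and Adra2c 26.4 ± 4.67% (SD, n = 2 each), and the order of Adra2a and Adra2c changed between the animals. The autonomic neuron markers summed to 3.93 TPM in replicate 2 and 5.60 TPM in replicate 1. Most of that sum was Uchl1, at 3.16 TPM in replicate 2 and 5.41 TPM in replicate 1, while Chat and Th were at 0 in both libraries.

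Adrb1 (ENSMUSG00000035283.5, chromosome 19, 56722199 to 56733113, plus strand), the Gs-coupled receptor that beta blockers target in the heart, was at 9.88 TPM in replicate 2 (852 counts, 9.23 to 10.6 TPM) and 10.92 TPM in replicate 1 (954 counts, 10.2 to 11.6 TPM). The intervals overlapped, and the gene ranked 4986 in replicate 2 and 4782 in replicate 1 among protein-coding genes. Its level was 1.38 times that of Adora1 in replicate 2 and 1.59 times in replicate 1. The level of Adra1a was 1.36 times that of Adrb1 in replicate 2 and 1.29 times in replicate 1. Adrb1-201, a transcript of 1 exon, held 98.1 ± 1.501% of the gene's TPM (SD, n = 2).

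All 9 genes had whole counts in both libraries (within 0.005 of a whole number). The second quantification gave counts between 0.957 and 1.14 times those of the first. In it Chrm2 was at 36.0 TPM in replicate 2 and 37.4 TPM in replicate 1, and the order of the 6 genes above 1 TPM was as in the first.

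The libraries were compared with each other by an exact two-sided binomial test on rounded expected counts, adjusted by Benjamini-Hochberg across all 13745 genes whose counts summed to 50 or more. Calls required an adjusted p under 0.05 together with a ratio, replicate 2 over replicate 1, of 2-fold or beyond. The p-values compare the reads of these 2 libraries and not conditions. For edgeR's exact test, the dispersion was estimated from the same 2 libraries taken as 1 group, so it gives no separate measure of spread between animals. Of the 9 receptor genes, 7 were tested, and Adra2a and Adra2c were below the count limit. The exact binomial test called 0 of the 7, against a background of 1.54% of all genes tested. At an adjusted p under 0.05 and any fold, 1 of the 7 passed, against 21.9% of all genes. With edgeR's exact test at a common dispersion, 0 of the 7 passed at any fold, against 1.13% of all genes. At an unadjusted p under 0.05 in edgeR's test there was 1 of the 7, beside 583 of the 13745 genes.

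The 5 genes with the highest levels had log2 ratios close to 0 with TMM scaling. The ratio was -0.03 for Chrm2 (95% interval -0.08 to 0.03) and 0.05 for Adra1b (-0.06 to 0.16). Adra1a was at 0.00 (-0.10 to 0.10). Adrb1 had a ratio of -0.06 (-0.20 to 0.07) and Adora1 of 0.10 (-0.03 to 0.23). These intervals cover counting error only and each contains 0. When libraries were scaled by their spike-in RNAs, a choice that shifted the median over all genes by 0.24, the ratios of these 5 genes were between 0.18 (Adrb1) and 0.34 (Adora1), those of Chrm2 and Adrb1 changed sign, and none of the 5 intervals contained 0. The median over the 7 tested receptor genes was 0.00080, beside -0.00015 over all 13745 genes, whose median absolute log2 ratio was 0.125.

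Adra1d was the gene that passed at any fold with TMM scaling. Its log2 ratio was -0.73 (-1.19 to -0.28), lower in replicate 2, with an adjusted p of 0.0069 from the exact binomial test. The difference was under the 2-fold limit. Erythroid and brown adipocyte markers were also lower in replicate 2, at the sums given above, and their part in the Adra1d value was not tested. In edgeR's exact test, run at a biological coefficient of variation of 0.113, Adra1d did not pass. That value was estimated from these same 2 libraries taken as 1 group. It therefore holds the difference being tested and is no separate measure of spread between animals. On the spike-in scale the ratio was -0.49, with an adjusted p of 0.0512 from the exact binomial test. Adra2b had a ratio of 0.28 (-0.47 to 1.04), Adra2a of -0.70 (-1.82 to 0.32) and Adra2c of -0.61 (-1.80 to 0.47), and each of these intervals contains 0.

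**Figure D3:**
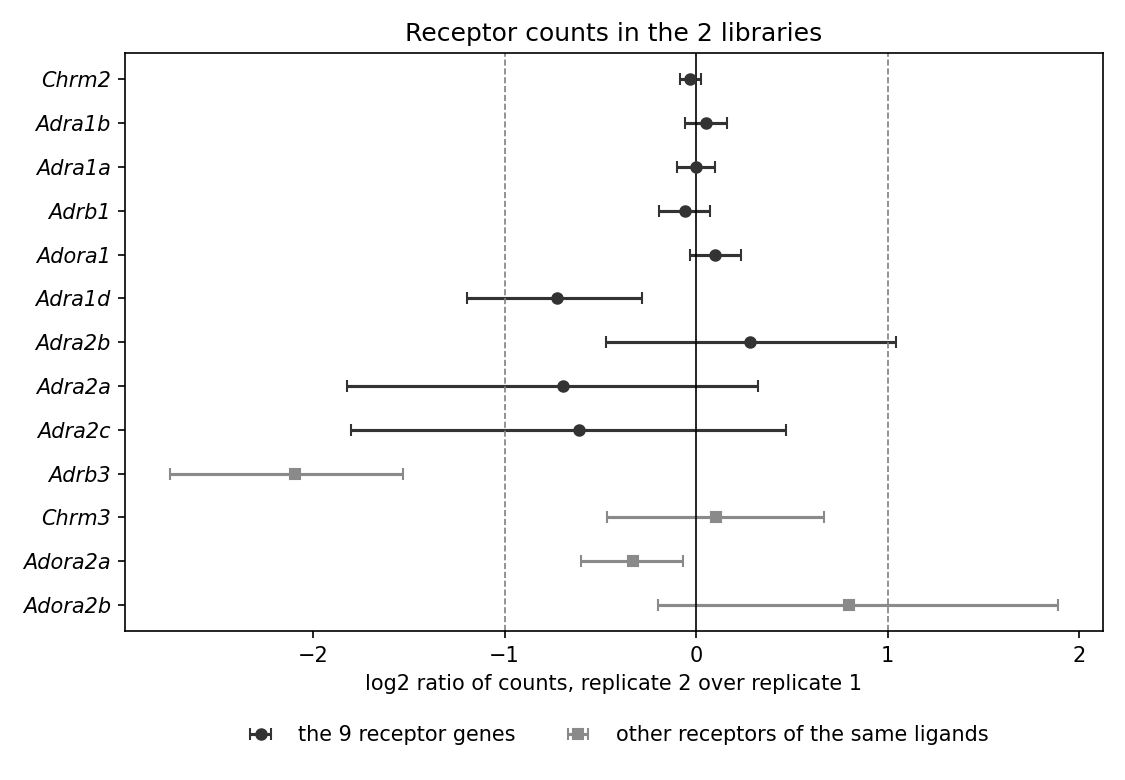
Log2 ratio of counts with TMM scaling, replicate 2 over replicate 1, for the 9 receptor genes (circles) and for other receptors of the same ligands with enough counts to plot (squares), with exact 95% intervals as bars. Dashed lines mark 2-fold. The 5 genes with the highest levels sit near 0 within narrow bars (0.18 to 0.34 on the spike-in scale), and Adrb3 lies beyond the 2-fold line at -2.10.

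Of 8 other receptors of the same ligands, 1 (the adenosine receptor gene Adora2a) reached 1 TPM in both libraries, at 3.30 TPM in replicate 2 and 4.18 TPM in replicate 1. Chrm3 was at 0.59 TPM in replicate 2 and 0.43 TPM in replicate 1, and Chrm4 and Chrm5 were listed at 0 in both. Adrb3, the beta-3 receptor known from brown fat, was at 0.37 TPM in replicate 2 (29 counts) and 2.27 TPM in replicate 1 (135 counts). It was called lower in replicate 2, with a log2 ratio of -2.10 (-2.75 to -1.53) and an adjusted p of 1.98e-14 from the exact binomial test. Among all genes tested, 0.982% were called lower. Brown adipocyte markers were lower in replicate 2 as well: 3 of 4 were called, with Ucp1, the uncoupling protein of brown fat, at 7.95 TPM in replicate 2 and 52.6 TPM in replicate 1. The part of these cells in the Adrb3 value was not tested.

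The genes that act downstream of the receptors were present across the lists. Tested were 9 alpha subunits, 10 beta and gamma subunits, 6 receptor kinases and arrestins, 8 regulators of G protein signalling and 8 effectors. None was called, against 1.54% of all genes tested, a share at which few calls can arise among so few genes. Some passed at an adjusted p under 0.05 and any fold in the exact binomial test, against 21.9% of all genes. They were Gnas, Gnb5, Grk3, Rgs2, Rgs3, Rgs4, Rgs5, Rgs6, Rgs12, Adcy5, Adcy6, Kcnj3 and Plcb4. With TMM scaling Rgs2 was higher in replicate 2 and all the others were lower, where 11.9% of all genes passed as lower. Of 11 G protein alpha subunits, 9 reached 1 TPM in both. Gnas, which encodes Gs alpha, was at 442 TPM in replicate 2 and 505 TPM in replicate 1. Gnai2, a Gi alpha subunit, was at 89.4 TPM in replicate 2 and 95.7 TPM in replicate 1, and Gna14 was the lowest of the list at 0.20 TPM in replicate 2 and 0.08 TPM in replicate 1. The Gs, Gi and Gq arms thus all had an alpha subunit above 1 TPM, with Gnaq at 8.30 TPM in replicate 2 and 8.98 TPM in replicate 1, named here after its value was seen. Of 12 beta and gamma subunits, 10 reached 1 TPM, led by Gnb2 at 88.1 TPM in replicate 2 and 90.7 TPM in replicate 1, and Gng5 at 89.1 TPM in replicate 2 and 86.8 TPM in replicate 1, with Gng3 lowest at 0 TPM in replicate 2 and 0.04 TPM in replicate 1.

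Among 8 effectors, 7 reached 1 TPM. Adcy6, a cyclic AMP producing enzyme of heart muscle, was highest at 74.4 TPM in replicate 2 and 87.1 TPM in replicate 1, and Plcb4, a phospholipase C, was next at 20.6 TPM in replicate 2 and 24.6 TPM in replicate 1. The subunits of the potassium channel that Chrm2 and Adora1 open, named after their values were seen, were at 19.6 TPM in replicate 2 and 20.8 TPM in replicate 1 for Kcnj3 and at 17.9 TPM in replicate 2 and 19.9 TPM in replicate 1 for Kcnj5. Plcb2 was lowest at 0.69 TPM in replicate 2 and 0.67 TPM in replicate 1.

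Receptor kinases and arrestins act on the receptors after activation, and regulators of G protein signalling act on G protein alpha subunits. Of 7 receptor kinases and arrestins, 6 reached 1 TPM, with Grk2 at 18.2 TPM in replicate 2 and 20.2 TPM in replicate 1 and Grk5 at 10.7 TPM in replicate 2 and 12.4 TPM in replicate 1. Grk4 was lowest at 0.28 TPM in replicate 2 and 0.32 TPM in replicate 1. Of 9 regulators of G protein signalling, 7 reached it. Rgs5, also a pericyte marker, was at 103 TPM in replicate 2 and 111 TPM in replicate 1, and Rgs2, which acts on Gq, at 29.4 TPM in replicate 2 and 19.8 TPM in replicate 1. The Rgs2 log2 ratio was 0.67 (0.55 to 0.79), under the 2-fold limit.

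The genes that make and clear the ligands were measured as well. Of 11 genes of catecholamine synthesis and clearance, 3 reached 1 TPM in both libraries, among them the clearance enzyme Maob at 10.1 TPM in replicate 2 and 11.1 TPM in replicate 1. Th, the rate-limiting enzyme of catecholamine synthesis, was listed at 0 in both. Of 5 genes of acetylcholine synthesis and breakdown, 1 reached it, Bche at 3.76 TPM in replicate 2 and 5.26 TPM in replicate 1, with Ache at 1.10 TPM in replicate 2 and 0.92 TPM in replicate 1. Chat, which makes acetylcholine, was at 0 in both libraries. Of 6 adenosine genes, 5 reached it, led by the kinase Adk at 90.8 TPM in replicate 2 and 95.2 TPM in replicate 1, and the transporter Slc29a1 at 26.5 TPM in replicate 2 and 28.8 TPM in replicate 1, with Ada lowest at 0.23 TPM in replicate 2 and 0.26 TPM in replicate 1. None of these 3 lists had a called gene, with 6, 2 and 5 genes tested in the order given, against 1.54% of all genes tested.

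**Figure D4:**
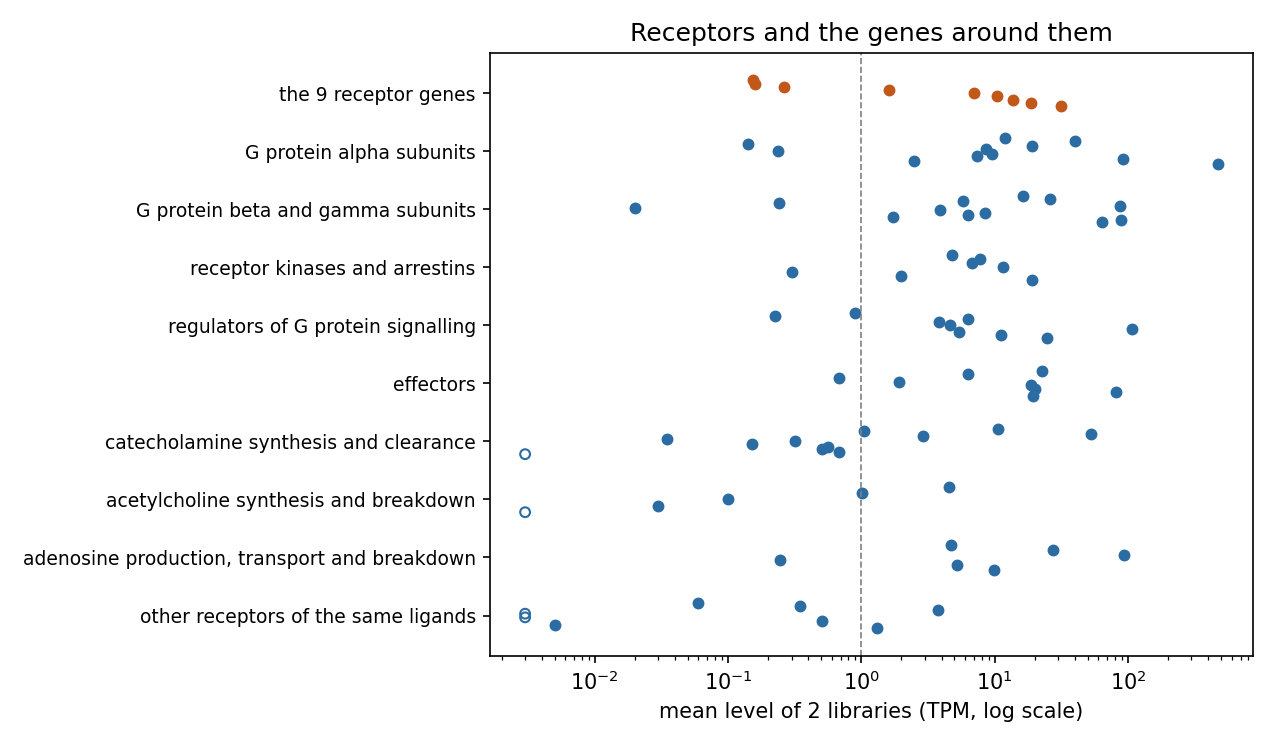
Mean level of 2 libraries (TPM, log axis) for the 9 receptor genes and for the lists of genes around them, 1 point per gene; open points at the left edge are genes at 0 and the dashed line is 1 TPM. The highest receptor gene, Chrm2 at 31.7 TPM, lies below the highest G protein alpha gene, Gnas at 473 TPM.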

How the data were processed

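Total RNA-seq of heart from 2 animals was available in 1 group, with 38332179 (replicate 2) and 39053339 (replicate 1) counts in sum. The authors deposited a gene table and a transcript table with expected counts, which are not normalized, and TPM values, scaled by effective length, per the file headers. A second deposited transcript table of estimated counts and TPM was summed here per gene. The build is mm10 with annotation M21, per the deposited description files; programs and versions: not given in the sources used here. Both references are of C57BL/6J, and the effect on CAST reads was not measured. The 26248 rows named only by a number and 97 spike-in rows were left out.

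Expected counts were rounded and compared by an exact binomial test against TMM effective library sizes (edgeR 4.0.16), since a quasi-likelihood fit has no residual degrees of freedom with 1 library on each side. Log2 ratios had 0.5 added to each count. Alternatives were DESeq2 1.42.0 size factors, a spike-in scale, no count filter, edgeR's exact test, the second quantification, the posterior mean TPM, rescaled TPM and other lengths. On counts simulated for 13755 genes, the test called 50 of 50 genes at 3-fold, 0 of 50 at 1.5-fold and 2 of 13555 unchanged genes. These counts were drawn with counting error only and no spread between animals, so they give no rate of false calls for the real libraries. The 1.5-fold genes lay under the 2-fold limit for a call. Python 3.11.15, pandas 2.3.3 and scipy 1.17.1 were used. Intervals are exact at 95%.

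The receptor genes and gene lists were chosen with earlier results of these data known. Named were all 9 receptor genes and, from each other list, the 2 highest and the lowest by mean TPM and the called genes. Some of these enter only sums and counts, and some are not reported here. Chrm3, Chrm4, Gnaq, Kcnj3 and Kcnj5 were named after their values were seen. So were Sln, Myl7, Gnb5, Grk3, Rgs3, Rgs4, Rgs6, Rgs12 and Adcy5. Protein sequences were not used here.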

Additional observations from a re-analysis of the deposited data

How the results depend on the processing

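The count of receptor genes called stayed at 0, and the count at 1 TPM or more in both libraries at 6, under every alternative run for them. Which receptor genes passed at any fold did change on the spike-in scale. There Adra1a, Adra1b, Adrb1, Chrm2 and Adora1 had an adjusted p under 0.05 in the exact binomial test, and Adra1d did not. Genes called overall were 211, with 210 under DESeq2 size factors, 313 of 24413 without a count filter, 203 in the second quantification (136 shared), 155 by edgeR's exact test and 250 on the spike-in scale. The spike-in scale moved the median log2 ratio of all genes by 0.24 and turned the split to 167 higher and 83 lower, against 76 higher and 135 lower; the log2 ratios were then 0.21 for Chrm2, 0.18 for Adrb1, 0.24 for Adra1a, 0.29 for Adra1b, 0.34 for Adora1 and -0.49 for Adra1d. Class shares moved with the second quantification to 45.7% for Gi and 41.5% for Gq, and the posterior mean TPM gave 40.7% for Gq. Per kilobase of the longest transcript, a choice made after seeing the data, Gi held 49.9%, Gq 36.9% and Gs 13.3%, and Adra1a and Adra1b held 46.1% and 48.3% of the alpha-1 sum. The Adra1a share was 39.1% in the second quantification and 40.4% with the posterior mean. In the second transcript table, the transcripts that led the first held 62.3% (Adra1b), 49.9998% (Adra2b), 94.8% (Adrb1), 97.0% (Chrm2) and 46.2% (Adora1) of their gene, and the cause was not tested. The Adra2b value is the mean of 99.9995% in replicate 2 and 0% in replicate 1. Adra1b-203 led the first only with the identical Adra1b-202 and Adra1b-204 listed apart. Levels rescaled without mitochondrial, haemoglobin, spike-in and number-only rows were higher for all 9 genes, with Chrm2 at 50.04 TPM. With either library left out, 6 receptor genes were still at 1 TPM or more, and the counts of called genes cannot be made from 1 library. No paired analysis was possible because the samples form 1 group. Depth limits the alpha-2 genes, at 12 to 34 counts, most.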
